A study of Rattus norvegicus with 6 samples.

Results

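Macrophage and pan-leukocyte transcripts were followed in 2 cell fractions made by digesting the inner medulla of rat kidneys. The genes were Ptprc, Cd53, Laptm5, Tyrobp, Fcer1g, Csf1r, Aif1, Cd68, Mrc1 and Cd163. They were chosen by name, and all probe sets annotated with 1 of these symbols alone were taken, which gave 13 probe sets for 10 genes of the 14217 genes on the array. Ptprc, Laptm5 and Aif1 had 2 probe sets each, and the other 7 genes had 1. Each gene is described by whichever of its probe sets was brightest on average over the 6 arrays, and the other probe sets are given beside it.

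Both fractions came from male Sprague-Dawley rats, 7 in all, that had received 1 mg of furosemide, a loop diuretic, into the peritoneum 30 min before death. The inner medulla, the innermost zone of the kidney, was digested with collagenase B and hyaluronidase for 75 min at 37 °C. The IMCD fraction was the low-speed pellet, enriched in inner medullary collecting duct cells, and the nonIMCD fraction was collected from the supernatant. There were 3 arrays per fraction, with a labelled age of 6 weeks for IMCD replicate 1 and of 10 weeks for the other 5 arrays. Neither fraction was sorted on a leukocyte marker, so each may hold several cell types. Which cells the nonIMCD fraction held is known here only through transcripts, such as those of leukocytes and of thin limb, vascular and interstitial cells. The submitters describe the 6 samples as 3 pairs, so IMCD and nonIMCD arrays may not be independent. They do not say which arrays form a pair or which rats went onto which array, and the fit took no account of pairs, so p-values measure the spread between these arrays, and the number of arrays limits the precision.

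The kidney medulla holds resident macrophages between its tubules and vessels, and their survival depends on signaling through the receptor encoded by Csf1r. All nucleated blood cells carry the phosphatase CD45, the product of Ptprc, which sets the activity of Src family kinases. Myeloid and NK cell receptors without a signaling tail of their own pair with the short adaptors encoded by Tyrobp and Fcer1g, whose ITAM motifs recruit the kinase Syk. Mrc1 and Cd163 encode scavenger receptors of tissue macrophages, and Cd68 encodes a lysosomal glycoprotein widely used to stain them.

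Of the 10 genes 9 were lower in IMCD and 1, Cd163, did not pass the test, with 0 higher. Over all genes 15.7% were lower and 10.0% higher (limma, adjusted p under 0.05 over all 31042 probe sets). On the log2 scale of intensity + 16 (IMCD minus nonIMCD) the median difference was -5.79 over the 10 genes against -0.09 over all genes. For the 7 of them whose IMCD mean lay above the negative controls, probe sets for a bacterial gene, the differences were -4.65 to -6.07 and the mean intensity in IMCD was 1.45% (Cd53) to 3.81% (Cd68) of that in nonIMCD. Aif1, by its brighter probe set, and Mrc1 have only a lower bound, with nonIMCD at least 51.7-fold and 37.8-fold brighter. The second Aif1 probe set had a difference of 0.51 and did not pass (limma adjusted p = 0.558), so the bound holds for the brighter one alone. By probe sets, 11 of 13 were lower, against 13.4% of all probe sets. For these 11 every IMCD array lay under every nonIMCD array, as did 24.9% of all probe sets. By the fitted values 71 of 14217 genes had a difference as negative as that of Cd68 or more so, the 9 included. In bulk fractions such as these, fewer cells of a type and less RNA per cell cannot be told apart.

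**Figure D1:**
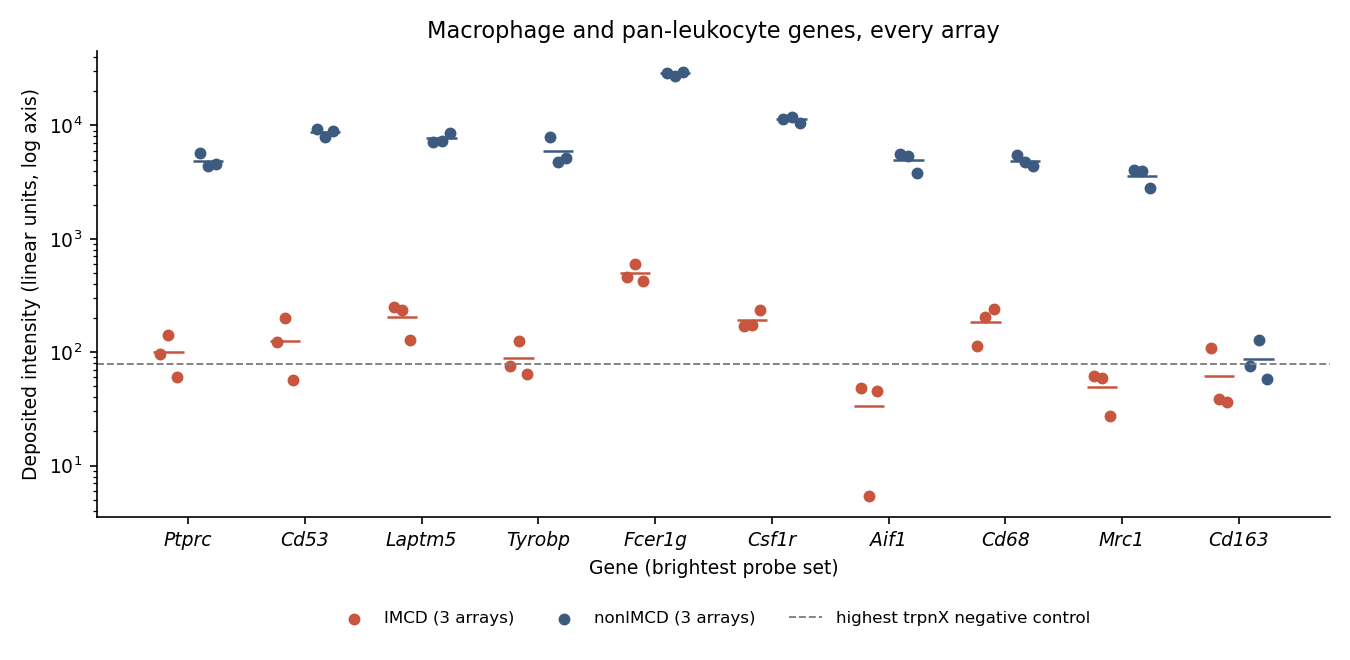
Deposited intensity (log axis) of each gene's brightest probe set on the 3 IMCD and 3 nonIMCD arrays, with bars at the group means and a dashed line at the highest intensity of the trpnX negative controls (78.4). For 9 genes all IMCD points lie well under all nonIMCD points, and for Cd163 the groups overlap around the dashed line.

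The deposited values carry no detection calls, so the 3 probe sets for the bacterial gene trpnX, which is not in rat RNA, served as negative controls. Their highest intensity on any array was 78.4, on nonIMCD replicate 1, and on the IMCD arrays it was 45.8. The limit used for all arrays was 78.4, which is cautious for IMCD. Where the IMCD mean of a probe set lay at or under this limit, the log2 difference was taken to have no reliable size. For such probe sets called lower, a lower bound on the fold is given instead, with each IMCD value raised to at least 78.4. Log2 differences in the figures are fitted values. The median over the 10 genes was -5.57 with Aif1 and Mrc1 at this bound. The same limit applies to 28 further list genes called lower, whose fitted differences are uncertain in size. Among those named below they are Clec7a, Trem2, Plcg2, Csf3r, Cd36, Cd37, C1qb, Adgre1, Itgam, Lsp1, Gzmb, Prf1, Nkg7, Cd3g, Cd3d, Cd2, Zap70, Itgax, Clec9a, S100a8, Epha7 and Ahsp. The median intensity was 270.3 to 273 on IMCD arrays and 330.1 to 341 on nonIMCD arrays. The log2 ratio of 3′ to 5′ control probe sets for rat beta-actin, Gapdh and hexokinase, a measure of RNA integrity, was 0.69 ± 0.03 in IMCD and 1.35 ± 0.14 in nonIMCD (SD, n = 3 each). Its part in the differences that follow was not tested. Of 10 collecting duct principal cell markers 9 were higher in IMCD and 0 lower, with Elf5 at 2.56, Scnn1g at 2.48 and Gata3 at 2.15 on the log2 scale. Their summed intensity was 228405 to 245211 on IMCD arrays and 109500 to 142679 on nonIMCD arrays. The collecting duct label of the IMCD fraction thus fits these markers, and collecting duct transcripts were also bright in nonIMCD.

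The promoters of these genes were read for the core site of PU.1, the transcription factor that macrophages depend on, because the 9 genes moved together. RefSeq promoter windows of 300 bases (build GRCr8) were found for 7 of the 10 genes, namely Ptprc, Cd53, Laptm5, Csf1r, Cd68, Mrc1 and Cd163. The letters GAGGAA occurred on either strand in 6 of these 7 windows, all but that of Cd163, and in 27.6% of all 33469 windows. A RUNX core, TGTGGT on either strand, was in 0 of 7 and in 17.3% of all windows. A TATA box, TATAAA on either strand, was in 1 of 7, that of Laptm5, and in 14.2% of all. These matches describe letters and show neither binding nor control. In Cd53, Laptm5, Mrc1 and Cd68 a match began within 63 bases before the annotated start, at 44, 63, 35 and 27 bases before it. For these 4 genes the 100 bases before the start are shown 5′ to 3′ on the gene's strand, with the PU.1 core in capitals, here always in its reverse form. They lie at chr2:197087897-197087996 on the minus strand for Cd53, chr5:148371780-148371879 on the plus strand for Laptm5, chr17:82157625-82157724 on the plus strand for Mrc1 and chr10:54882442-54882541 on the minus strand for Cd68.
Cd53: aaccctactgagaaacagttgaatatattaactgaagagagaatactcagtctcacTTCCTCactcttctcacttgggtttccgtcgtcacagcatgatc
Laptm5: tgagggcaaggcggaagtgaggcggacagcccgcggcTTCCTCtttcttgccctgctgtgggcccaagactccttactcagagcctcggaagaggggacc
Mrc1: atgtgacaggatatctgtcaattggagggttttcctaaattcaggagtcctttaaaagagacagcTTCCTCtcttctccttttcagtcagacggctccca
Cd68: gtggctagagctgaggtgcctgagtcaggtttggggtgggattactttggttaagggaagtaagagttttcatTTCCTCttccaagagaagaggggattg

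The pan-leukocyte membrane proteins were low in every IMCD array. Ptprc had intensities of 96.3, 143 and 60.1 on the IMCD arrays, against 5673, 4355 and 4555 on the nonIMCD arrays. The groups did not overlap, and the difference was -5.45 ± 0.29 (SE, limma adjusted p = 0.000366). The second Ptprc probe set, designed against shared parts of its transcript variants, had 14.4, 52.5 and 4.54 in IMCD and 1478, 1884 and 1584 in nonIMCD. Its IMCD mean lay under the negative control limit, so nonIMCD was at least 17.5-fold brighter (adjusted p = 0.000945).

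Cd53, a tetraspanin of the leukocyte surface, had 122, 201 and 57.3 in IMCD and 9302, 7921 and 8899 in nonIMCD. It differed by -6.07 ± 0.39 (SE, adjusted p = 0.000531), and only IMCD replicate 3 fell under the negative control limit. Laptm5 encodes a lysosomal membrane protein of blood cells that promotes the breakdown of antigen receptors. Its brighter probe set had 249, 237 and 127 in IMCD and 7211, 7339 and 8662 in nonIMCD, a difference of -5.18 ± 0.27 (SE, adjusted p = 0.000333). Its second probe set had 94.5, 74.5 and 53.3 in IMCD and 8240, 7156 and 6952 in nonIMCD. That probe set lay under the limit in IMCD on average, with nonIMCD at least 74.8-fold brighter (adjusted p = 0.000166). The probe sets of Laptm5 thus shared a direction and differed in size, with 2.64% and 0.995% of the nonIMCD mean in IMCD.

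Both ITAM adaptors were lower in IMCD. Tyrobp, which encodes the adaptor DAP12, had 75.4, 127 and 64.4 in IMCD and 7832, 4747 and 5149 in nonIMCD. Its difference was -5.83 ± 0.30 (SE, adjusted p = 0.000333), and nonIMCD replicate 1 stood above the other nonIMCD arrays. In IMCD, replicates 1 and 3 lay under the negative control limit. Fcer1g, which encodes the gamma chain of Fc receptors, had 464, 599 and 427 in IMCD and 29037, 27500 and 29664 in nonIMCD. Its difference was -5.82 ± 0.16 (SE, adjusted p = 0.000117). Fcer1g lay clearly over the negative controls in all 6 arrays, so its 1.73% share of the nonIMCD mean in IMCD is among the better measured values of the group.

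The receptors and enzymes that work with these adaptors came from a list of ITAM receptor and signaling genes. Of its 16 measured members 13 were lower, 0 were higher and 3 did not pass, with a median of -2.47 (-2.18 with bounds). Fcgr1a, the high-affinity IgG receptor, differed by -4.43 ± 0.20 (SE, adjusted p = 0.000264). For Clec7a, the beta-glucan receptor, nonIMCD was at least 12.7-fold brighter (adjusted p = 0.000117), and for Trem2, a lipid-sensing receptor that needs DAP12, at least 4.94-fold (adjusted p = 0.000531). Enzymes of this list were named after their values were seen. The lipid phosphatase Inpp5d differed by -3.41 (adjusted p = 0.000413) and the kinase Fgr by -2.50 (adjusted p = 0.000399). The kinase Syk differed by -1.61 (adjusted p = 0.00433) with 257, 366 and 279 in IMCD and 967, 1126 and 765 in nonIMCD, and the kinase Lyn by -0.76 (adjusted p = 0.00794). Fcer1a and Ms4a2, the mast cell subunits of the IgE receptor that also holds the Fcer1g chain, did not pass (0.22, adjusted p = 0.439, and -0.04, adjusted p = 0.966). Both had values near the negative controls in each fraction.

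Csf1r encodes the receptor for the growth factors Csf1 and Il34. Its intensities were 170, 173 and 234 in IMCD and 11336, 11936 and 10592 in nonIMCD, a difference of -5.77 ± 0.16 (SE, adjusted p = 0.000117). Its ligands, named after their values were seen, did not pass. Csf1 had 1333, 1374 and 1584 in IMCD and 1480, 1610 and 1611 in nonIMCD (-0.13, adjusted p = 0.517). Il34 had 93.6, 67.5 and 92.5 in IMCD and 144, 104 and 144 in nonIMCD, which did not overlap but did not pass (-0.54, adjusted p = 0.101). In the list of Csf1r ligands and macrophage transcription factors 5 of 9 measured genes were lower and 0 higher, among them the transcription factors Irf8 (-3.11, adjusted p = 0.000399) and Cebpa (-2.03, adjusted p = 0.00147) and the receptor Csf3r, at least 2.89-fold brighter in nonIMCD (adjusted p = 0.013).

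Aif1 encodes Iba1, a calcium-binding protein of the macrophage cytoskeleton. Its brighter probe set, whose name marks possible matches to more than 1 transcript, had 48.7, 5.44 and 45.5 in IMCD and 5641, 5390 and 3789 in nonIMCD. All IMCD values lay under the negative control limit, so nonIMCD was at least 51.7-fold brighter (adjusted p = 0.000612). The other Aif1 probe set had 90.9, 150 and 131 in IMCD and 95.8, 27.4 and 171 in nonIMCD, which overlap, and it did not pass (0.51 ± 0.54, SE, adjusted p = 0.558). The 2 probe sets of Aif1 therefore disagree, and the second is dim in both fractions.

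Cd68 had 113, 202 and 241 in IMCD and 5541, 4717 and 4356 in nonIMCD. Its difference of -4.65 ± 0.28 (SE, adjusted p = 0.000477) was the smallest of the 9, and its IMCD mean was 3.81% of the nonIMCD mean. Of 11 measured members of the lysosome list 2 were lower, 2 were higher and 7 did not pass, with a median of 0.01. That is 18.2% in either direction, beside 15.7% lower and 10.0% higher over all genes. Alpha-galactosidase (Gla, 1.54, adjusted p = 0.00149) and cathepsin D (Ctsd, 1.26, adjusted p = 0.00132) were higher in IMCD, and cathepsin L (Ctsl, -0.68, adjusted p = 0.0274) was lower.

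Of the scavenger receptors Mrc1 was lower in IMCD and Cd163 was near the negative controls in both fractions. Mrc1, the mannose receptor, had 62.2, 59.5 and 27.2 in IMCD and 4013, 3998 and 2787 in nonIMCD. Its IMCD values all lay under the negative control limit, and nonIMCD was at least 37.8-fold brighter (adjusted p = 0.000325). Cd163, the receptor for complexes of haptoglobin and hemoglobin, had 109, 38.8 and 36.1 in IMCD and 75, 128 and 58.5 in nonIMCD. The groups overlapped, and the difference of -0.49 ± 0.42 did not pass (SE, adjusted p = 0.471). Only 1 array of each fraction exceeded the negative control limit, and the nonIMCD mean of 87.1 lay little above it. This single dim probe set therefore cannot decide whether Cd163 differed.

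Other genes of scavenging and tissue-resident macrophages mostly followed Mrc1. Limma called 8 of 11 measured members lower and 1 higher, and the median was -2.43. The transcription factor Maf (-4.80, adjusted p = 0.000303) and the endocytic receptor Stab1 (-4.38, adjusted p = 0.000447) were among the lower genes. So was the fatty acid scavenger Cd36, at least 14-fold brighter in nonIMCD (adjusted p = 0.00336). The higher gene was Hmox1, which encodes heme oxygenase and is also a stress gene of many cell types. It had 5105, 3745 and 5178 in IMCD and 2268, 2100 and 2364 in nonIMCD (1.04, adjusted p = 0.0101). Endothelial cells also express Cd36 and Stab1, and all 7 measured endothelial markers were lower in IMCD, with summed intensities of 12994 to 16446 in IMCD and 50267 to 57142 in nonIMCD. The part of endothelium in these genes was not tested.

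Relatives in the same protein families that are not restricted to leukocytes were set beside the 10 genes. Of 17 measured relatives 4 were lower, 2 were higher and 11 did not pass, with a median of -0.01. The lower genes were 23.5% of the relatives, and over all genes 15.7% were lower and 10.0% higher. Against Laptm5, Laptm4b was higher in IMCD (1.11, adjusted p = 0.00758) and Laptm4a did not pass (0.38, adjusted p = 0.0958). Among tetraspanins, the leukocyte gene Cd37 was at least 17.3-fold brighter in nonIMCD (adjusted p = 0.00149). Cd82 was higher (1.13, adjusted p = 0.00248), and Cd9, Cd63, Cd81 and Cd151 had 0.48, 0.12, 0.07 and -0.01 and did not pass. Among receptor phosphatases Ptpra (-0.85, adjusted p = 0.0458) and Ptprs (-1.08, adjusted p = 0.034) were lower, and Ptprf (-0.13) and Ptprk (-0.22) did not pass.

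Relatives of the macrophage genes were measured as well. The Aif1 relative Aif1l was lower by a small amount (-0.55, adjusted p = 0.0291), with 15522, 17764 and 15790 in IMCD and 22487, 24687 and 24506 in nonIMCD. The Cd68 relatives Lamp1 (0.29) and Lamp2 (0.01) did not pass, nor did the Mrc1 relative Pla2r1 (-0.89, adjusted p = 0.237). Of the receptor kinases related to Csf1r, Pdgfrb, a pericyte gene, was lower (-1.84, adjusted p = 0.0322), and Pdgfra (-1.40), Kit (-0.50) and Flt3 (-0.96) did not pass. Pla2r1 and Flt3 had means near the negative controls in both fractions (45.5 and 34.8 in IMCD, 87.2 and 83.8 in nonIMCD). The IMCD mean of Pdgfra, 72.5, also lay under the limit. The differences between each gene and its relatives were set side by side and not tested.

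**Figure D2:**
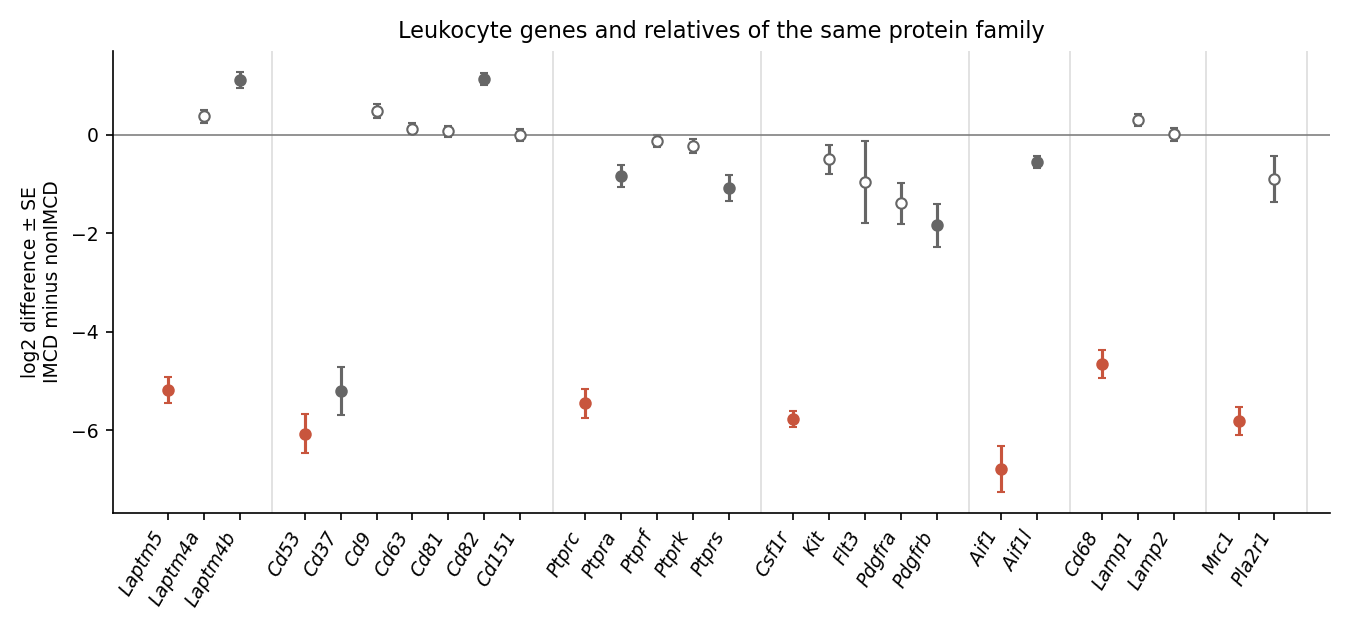
Log2 difference (IMCD minus nonIMCD, with SE from the fit on 3 arrays per fraction) of 7 leukocyte genes (red) and of relatives in the same protein family (grey). Filled points passed limma's test and open points did not; the fitted values of the leukocyte genes lie between -4.65 and -6.79, and among the relatives only Cd37, itself a leukocyte gene, has a fitted value in that range. Aif1, Mrc1, Cd37, Pla2r1, Pdgfra and Flt3 had IMCD means under the negative control limit.

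Further leukocyte genes were measured for context. Of 12 further macrophage genes 10 were lower and 0 higher (median -4.42, and -4.04 with bounds), with the oxidase subunit Cybb at -6.15. The complement subunit C1qb and the adhesion receptor Adgre1 were at least 77.1-fold and 51.5-fold brighter in nonIMCD. Of 10 measured further pan-leukocyte genes 7 were lower and 0 higher (median -2.86), among them the actin regulator Coro1a (-6.01), the GTPase Rac2 (-5.69) and the actin-binding protein Lsp1, at least 14.5-fold brighter in nonIMCD. The 5 members of these lists that did not pass, named after their values were seen, were Cd14 (-0.25, adjusted p = 0.264), Ccr2 (-0.27, adjusted p = 0.802), Cd48 (-0.26, adjusted p = 0.204), Cd52 (-2.03, adjusted p = 0.115) and Arhgdib (0.24, adjusted p = 0.209). Cd14, a receptor for bacterial lipopolysaccharide, had 6988, 6079 and 6228 in IMCD and 8505, 6992 and 7451 in nonIMCD. Arhgdib had 22691, 23319 and 23476 in IMCD and 18505, 20993 and 19350 in nonIMCD, so both genes had bright signal in each fraction.

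The pan-leukocyte genes and both adaptors are also expressed by leukocytes other than macrophages, whose markers were measured too. Of 5 measured NK and cytotoxic lymphocyte markers 4 were lower (median -4.28, and -3.39 with bounds). For Gzmb, Prf1 and Nkg7 nonIMCD was at least 42.2-fold, 16-fold and 10.5-fold brighter. Of 7 T cell markers 6 were lower (median -2.79, and -2.54 with bounds). For Cd3g, Cd3d and Zap70 nonIMCD was at least 8.96-fold, 5.83-fold and 6.89-fold brighter. Of 4 measured dendritic cell markers limma called 3 lower. Cd83 had -2.88, and for Itgax nonIMCD was at least 32.7-fold brighter. The third call, Clec9a (limma adjusted p = 0.006), had 12.3, 10.2 and 9.69 in IMCD and 36.8, 56.2 and 65.4 in nonIMCD. All 6 values lay under the negative control limit, so no bound on its fold can be given and this call is uncertain. Of 4 measured neutrophil markers limma called 1, S100a8, lower, with nonIMCD at least 1.3-fold brighter. Its nonIMCD values of 95.8, 158 and 79.3 were themselves close to the negative control limit. Of 6 mast cell markers limma called 0, and 0 had an unadjusted p under 0.05. Tpsb2 differed most (1.18, adjusted p = 0.157). Of 2 measured B cell markers, Cd79b was higher in IMCD (1.09, adjusted p = 0.00422) and Ms4a1 did not pass and was near the negative controls. The share of Ptprc, Cd53, Laptm5, Tyrobp and Fcer1g signal that came from each cell type was not tested.

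**Figure D3:**
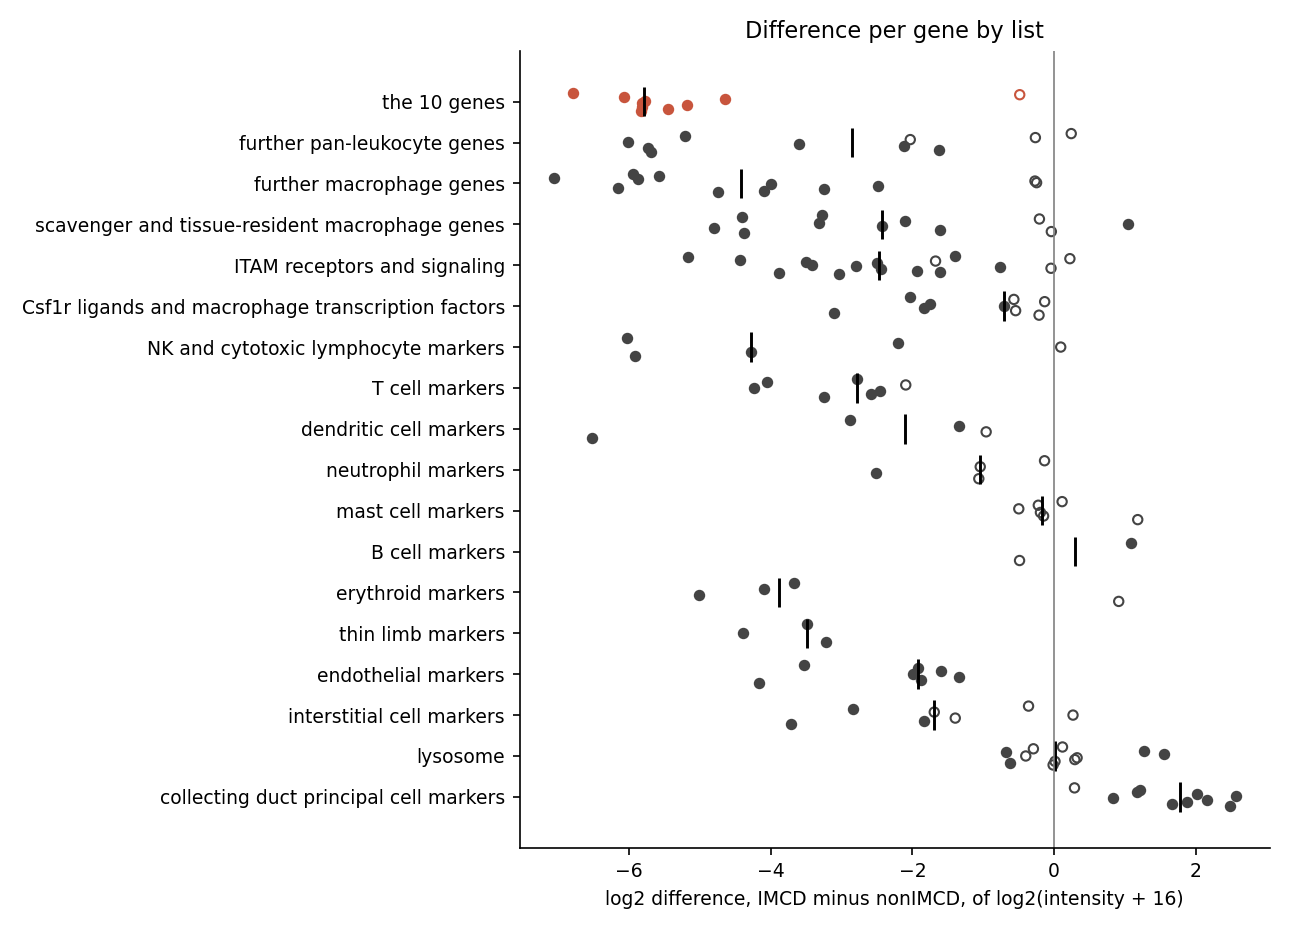
Log2 difference (IMCD minus nonIMCD) of each measured gene by list, with a bar at the list's median, filled points for genes that passed limma's test and open points for those that did not. The 10 genes have a median of -5.79, and the collecting duct principal cell markers lie on the other side of 0.

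The part of the nonIMCD signal that was found in IMCD was set side by side between lists and not tested. Its median was 1.72% for the 10 genes, 3.44% for 12 further macrophage genes and 11.7% for 10 further pan-leukocyte genes. It was 14.3% for 16 ITAM receptor and signaling genes, 4.66% for 5 NK and cytotoxic lymphocyte markers and 11.5% for 7 T cell markers. In each of these lists but the 10 genes, a gene at the median had an IMCD mean under the negative control limit. These were Itgam (15), Cd52 (31.8), Plcg2 (56.9), Nkg7 (48.9) and Cd2 (40), so those medians are uncertain. The median was 8.58% for 3 thin limb markers, where the median gene, Epha7, had an IMCD mean of 57.9 under that limit. It was 26.4% for 7 endothelial markers and 27% for 7 interstitial cell markers. For 4 erythroid markers it was 3.92%, with summed intensities of 5573 to 10003 in IMCD and 31234 to 90833 in nonIMCD. A gene at that median, Ahsp, had an IMCD mean of 23 under the limit. Slc4a1, the brightest of the 4 in IMCD, went the other way and did not pass (0.91, limma adjusted p = 0.165). Its intensities were 4827, 3513 and 6963 in IMCD and 1589, 2997 and 3688 in nonIMCD. Hbb had 650, 2282 and 2848 in IMCD, so most of the summed IMCD intensity of this list came from Slc4a1. That sum is therefore no measure of the list as a whole. Within the 9 lower genes the share was 1.62%, 2.14% and 1.24% at the median on IMCD replicates 1, 2 and 3. Replicate 3 had the lowest of the IMCD values for 6 of the 9 genes and replicate 2 the highest for 4 of them, so no IMCD array was highest throughout.

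The 9 genes were similar on the 3 nonIMCD arrays. The highest nonIMCD value was 1.08 to 1.65 times the lowest, with Fcer1g the steadiest and Tyrobp the most variable. The median of this ratio was 1.29 over the 10 genes and 1.32 over all genes. Replicate 1 was highest for 6 of the 9 genes. On the same arrays the 3 erythroid markers called lower varied by 2.81 to 7.62 times, with Hbb at 28646, 63063 and 80473. The 6 T cell markers called lower varied by 1.09 to 6.74 times, and Cd3g had 1864, 1085 and 276. Erythroid signal was thus lowest on nonIMCD replicate 1, where most of the 9 genes were highest. In IMCD the highest value was 1.38 to 8.95 times the lowest, at intensities near the negative controls for most of the 9.

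**Figure D4:**
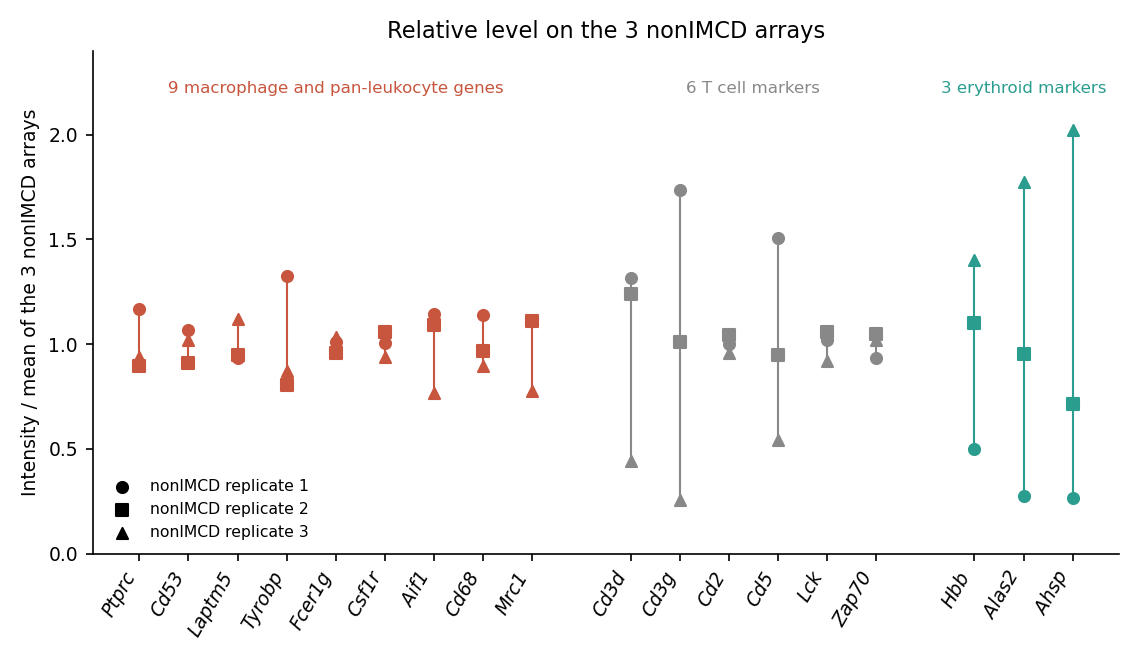
Intensity on each nonIMCD array divided by the mean of the 3 nonIMCD arrays, for the 9 lower genes, 6 T cell markers and 3 erythroid markers called lower in IMCD; vertical lines join the lowest and highest array. The 9 genes span 1.08 to 1.65 times, and the erythroid markers 2.81 to 7.62 times.

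The genes most like the mean profile of the group were sought by the Euclidean distance between centred log2 values over the 6 arrays, among genes with a nonIMCD mean log2 level of at least 8. With all 10 genes in the mean these were Alox5, Clec7a, Pld4, Ms4a6bl1, Fcmr and Runx3, at distances of 0.38 to 0.52. Without Cd163, a choice made after seeing the data, they were C1qa, Trpc6, Adgre1, C1qc, Coro1a and Mpeg1, at distances of 0.35 to 0.47, and 0 of 6 were shared. Among these, Alox5, Clec7a, Runx3 and Trpc6 lay under the negative control limit on all IMCD arrays, and Pld4 and Adgre1 did on average, so these distances rest partly on background signal and are uncertain. C1qa and C1qc encode chains of complement C1q, which macrophages secrete, and Mpeg1 encodes a pore-forming protein of phagocytes. Of the 9 lower genes Laptm5 lay nearest to the mean of the 10 (0.57) and Aif1 farthest (2.45).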

How the data were processed

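RNA samples, 3 of IMCD and 3 of nonIMCD, were hybridised to Affymetrix Rat 230 2.0 arrays. The deposited values are linear intensities, 1 per probe set and array. The authors had scaled them, since every array had the same mean of 1000.3 to 1000.4 after 2% of the values was trimmed from either end, and their software is not given in the sources used. Of 31099 probe sets 57 controls were left out and 31042 tested. Symbols came from the platform annotation of 2016 (20826 probe sets with 1 symbol, 436 with several, 9780 with none). Of the single symbols 20758 matched RefSeq (GRCr8) by identifier, and 0 changed. Genes are represented by their brightest probe set.

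Log2(intensity + 16) was fitted with limma 3.58.1 in R 4.3.3 (lmFit, eBayes, two-sided, IMCD minus nonIMCD, all 6 arrays, no covariate, no filter), with Benjamini-Hochberg adjustment over all probe sets and a threshold of 0.05. This scale understates differences of dim probe sets. Tested on simulated data, the fit recovered 49 of 100 changes of log2 2 and 88 of 100 of log2 4, with 5 false calls. Genes that did not pass may therefore still differ.

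Named were all 10 genes, the 3 largest differences past the threshold in each list (or the largest 1 where none passed), family relatives and the 6 genes most alike. The endothelial, interstitial, thin limb and erythroid lists were not named by this rule and are given mainly as medians or sums. The members and lists were chosen with earlier results of these data known. Alternatives covered pseudocounts, scaling, a filter, an intensity trend, a replicate block, probe set medians and leaving out each array.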

Additional observations from a re-analysis of the deposited data

How the results depend on the processing

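The 9 lower genes kept their direction and passed the threshold in all 126 values from 14 alternatives, with log2 differences of -3.14 to -7.63 and a highest adjusted p of 0.0124. The smallest of these, -3.14, was that of Aif1 with its probe sets combined by their median. Cd163 passed in 0 of 13 alternatives that gave it a value (-0.20 to -0.89, adjusted p 0.14 to 0.781), and it was left out by the filter on dim probe sets. The counts of 9 genes and 11 probe sets held under every alternative that gave them, also without IMCD replicate 1, the array of the younger age. With the replicate block limma called 9 of the 10 genes, and 1831 probe sets higher and 2993 lower, against 2663 and 4163 without it. The numbers were not taken as pairs, since IMCD replicate 1 is labelled 6 weeks and nonIMCD replicate 1 is labelled 10 weeks. Deviations of same-numbered arrays from their group means correlated at r = 0.035 to 0.061, which cannot decide on pairing with 3 arrays per fraction. Each array correlated best with the array of its own number in the other fraction, a hint from the data. The submitters describe 3 pairs without saying which arrays they are.

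Counts over the whole array moved more. Under median centring 5389 probe sets were higher and 2652 lower, and higher calls made up 67% of calls, against 39% as deposited and 52.1% with quantile normalization. The median over all probe sets moved up by 0.29 and 0.15 under these scalings. Leaving out 1 array gave 1537 to 2248 higher and 2647 to 3221 lower probe sets, and the lowest counts came without IMCD replicate 1 for higher and without nonIMCD replicate 1 for lower. Of the list genes 78 were lower and 15 higher, with 67 to 83 lower and 14 to 22 higher under the alternatives. Signal near the negative controls limits the size of the differences, since Aif1 and Mrc1 have only a lower bound on their fold.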
